A study of Mus musculus with 12 samples.

Results

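The set comprised 32 genes of ependymal cells, motile cilia and the choroid plexus, chosen by symbol, and all 32 were found among the 45777 genes of the table. Messenger RNA had been sequenced from astrocytes purified from mouse cerebral cortex at postnatal day 14, in 12 libraries that form 4 groups of 3. In AGR cKO animals both copies of the glucocorticoid receptor gene are floxed (Nr3c1 flox/flox) and Aldh1l1-CreERT2 supplies a recombinase that tamoxifen switches on, under a gene that astrocytes express. Cre- animals carry the floxed alleles without the recombinase. ESD pups of either genotype were kept from the dam for 3 hours daily between postnatal days 1 and 14, an early life stress, and control pups were not. The groups were thus AGR cKO ESD, AGR cKO control, Cre- ESD and Cre- control, and all of them, Cre- and control animals included, received 4-hydroxytamoxifen on postnatal days 5 to 7. The cells had been isolated by immunopanning and magnetic beads. Whether the recombinase acted in ependymal cells is not given in the sources used here. The labels do not say whether the libraries of a group came from separate animals or pools, so p-values measure only the spread between these samples, which may be technical.

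Ependymal cells line the brain ventricles and move cerebrospinal fluid with tufts of motile cilia. The shaft of such a cilium, the axoneme, is a ring of doublet microtubules around a central pair; dynein arms slide the doublets, and radial spokes and central apparatus set the beat. The forkhead factor FOXJ1 and RFX factors switch on the genes of this machinery, which astrocytes with their single non-motile cilium use little. The choroid plexus is the neighbouring epithelium that secretes cerebrospinal fluid, and transthyretin (Ttr) is its most abundant product.

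Libraries held 42603546 to 52130081 counts assigned to genes. Levels are given as CPM, counts scaled by library size with TMM factors, or as deposited TPM, which also allow for length, where genes are compared with each other. Nr3c1 had 90.5, 66.6 and 95.9 CPM in AGR cKO ESD, 102, 93.2 and 108 CPM in AGR cKO control, 209, 205 and 199 CPM in Cre- ESD, and 214, 210 and 237 CPM in Cre- control libraries. Every AGR cKO library was thus below every Cre- library (log2 fold change -1.20 ± 0.08, SE, adjusted p = 0.000203 by edgeR). The 15 astrocyte markers summed to between 47310 and 66815 CPM, and Aldh1l1, whose promoter drives the recombinase, had 437 to 667 CPM in AGR cKO and 377 to 544 CPM in Cre- libraries.

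Apart from Mcidas and Ttr, members had counts in all 12 libraries, at low to moderate levels. Averaged over the 12 libraries, Rarres2, which encodes the secreted chemoattractant chemerin, was the highest at 74.4 TPM, followed by Foxj1 at 37.9, Ccdc153 at 28.2, Tmem212 at 22.3, Ccdc39 at 19.6, Rsph1 at 19.2 and Enkur at 18.8 TPM. At the low end were Folr1 at 2.16, Ttr at 2.12, Spag17 at 1.53 and Clic6 at 1.21 TPM, and the coactivator Mcidas at 0.00437 TPM. A filter on low counts (edgeR's filterByExpr) kept 19163 genes for testing, 31 of the 32 members among them. Mcidas, which encodes multicilin, a short-lived starter of the multiciliated cell programme, did not pass: it had 2 counts in Cre- ESD 3 and 0 in the other 11 libraries, where 3 counts would correspond to 0.0587 to 0.0703 CPM.

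In AGR cKO animals, 11 of the 31 tested members were lower than in Cre- animals over both rearing conditions, and none was higher. These were Tekt4, Tmem212, Ccdc153, Hydin, Dnah12, Dynlrb2, Cfap126, Dnali1, Dnah11, Dnah5 and Rarres2, at an adjusted p under 0.05 in edgeR's quasi-likelihood test over all genes. Of all genes tested, 1.94% were called lower in this comparison and 1.55% higher. The median log2 fold change of the 31 members was -0.80, against 0.00 over all genes tested (quartiles -0.17 and 0.11), and 28 of the 31 lay below 0, as did 50.6% of all genes. At an unadjusted p under 0.05, 24 members were lower and 0 higher, against 11.3% and 8.7% of all genes. Over all 12 libraries the genotypes did not overlap for 4 members, Cfap126, Dnali1, Tekt4 and Tmem212, against 1.4% of all genes. DESeq2 called 18 members lower, all 11 among them, against 5.58% of all genes. The count of 11 depended on single libraries: it was 2 without AGR cKO control 2, 3 without AGR cKO ESD 1, 6 without AGR cKO ESD 3, AGR cKO control 3 or Cre- ESD 3, and 7 without Cre- ESD 1, Cre- ESD 2, Cre- control 1 or Cre- control 2. It was 14, 11 and 9 without Cre- control 3, AGR cKO control 1 and AGR cKO ESD 2. The 11 without AGR cKO control 1 were not the same genes. There Cfap126, Dnah11 and Dnali1 lost their call, and Ak7, Rsph4a and Folr1 gained one. Calls over all genes also moved in these 12 fits, from 151 to 932, against 668 in the main fit. Dynlrb2 and Tmem212 kept their call in all 12 of these fits, Hydin in 11, and Ccdc153, Rarres2 and Tekt4 in 10 of them. Dnah12 kept it in 7, Dnah5 in 3, Dnali1 in 2, and Dnah11 and Cfap126 in 1 each. In bulk RNA, fewer ependymal cells in the purified fraction and less of these RNAs per ependymal cell cannot be told apart.

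**Figure D1:**
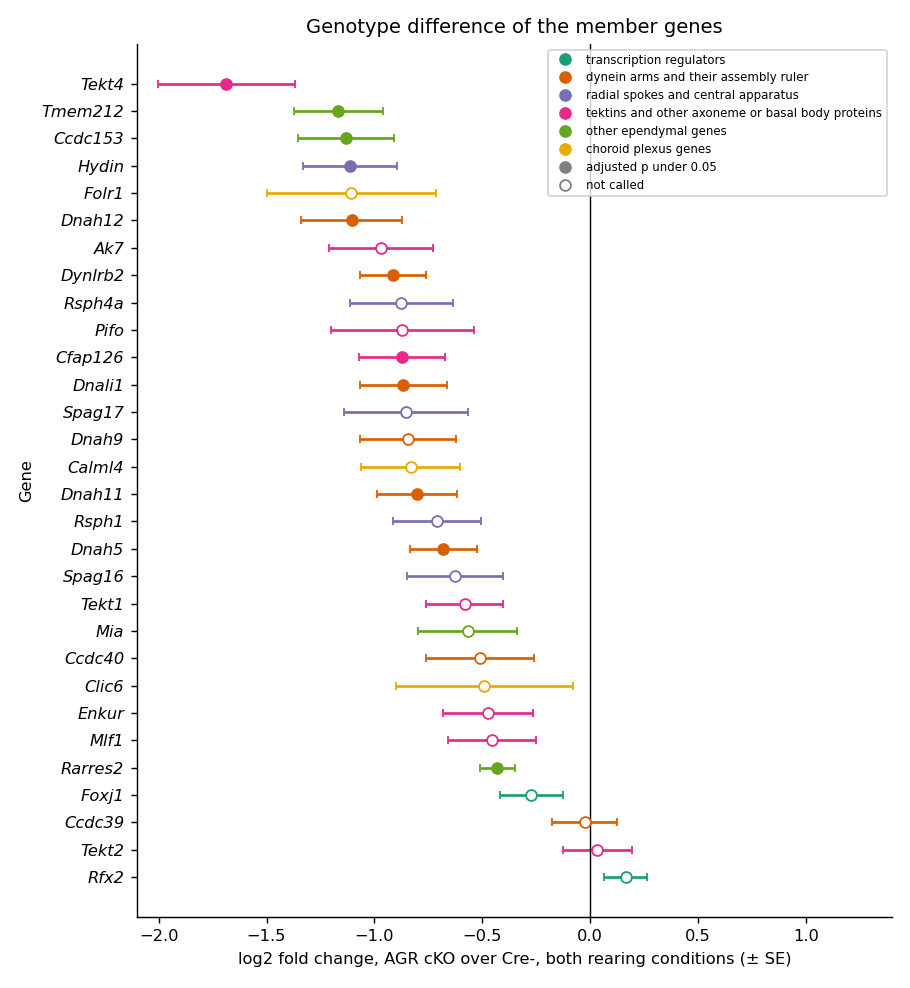
Log2 fold change of AGR cKO over Cre- libraries for 30 members (x axis; bars, SE; edgeR over all 12 libraries), sorted by size and coloured by role, with filled points at an adjusted p under 0.05. Tekt4 lies farthest to the left at -1.69, while Foxj1, Ccdc39, Tekt2 and Rfx2 lie nearest to 0; Ttr, at 0 counts in several libraries, and Mcidas, not tested, are left out.

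Of the transcription factors that drive the programme, neither Foxj1 nor Rfx2 was called between genotypes. Foxj1, the forkhead factor required for motile cilia, had 27.2, 37.1 and 22.8 CPM in AGR cKO ESD, 39.2, 32.3 and 25.5 CPM in AGR cKO control, 25.4, 28.9 and 30.6 CPM in Cre- ESD, and 46.0, 60.7 and 38.8 CPM in Cre- control libraries. The 3 Cre- control libraries were the highest but for AGR cKO control 1, which stood just above Cre- control 3, and the other 3 groups covered much the same range. The genotype difference of Foxj1 over both rearing conditions was -0.27 ± 0.15 (SE, adjusted p = 0.338). Rfx2, an RFX factor that acts with FOXJ1 on cilium genes, had 14.2, 20.6 and 15.6 CPM in AGR cKO ESD, 16.5, 16.1 and 15.5 CPM in AGR cKO control, 11.6, 13.4 and 13.1 CPM in Cre- ESD, and 14.6, 18.6 and 17.4 CPM in Cre- control libraries. Its 3 Cre- ESD libraries were the lowest of all but did not set Cre- as a whole apart from AGR cKO (difference 0.17 ± 0.10, adjusted p = 0.396). Whether the cilium genes differed more than Foxj1 was not tested. Of close relatives that many tissues express, Foxj2 was at 0.01 ± 0.07, Foxj3 at -0.02 ± 0.07 and Rfx3 at 0.09 ± 0.07 on the log2 scale, and none was called.

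Promoters of the set are shown for 5 genes, because RFX and forkhead factors read motifs there. The RefSeq table (GRCm38.p6) held start sites for 25 of the 32 members, not for Folr1, Foxj1, Clic6, Rsph1, Rsph4a, Ttr or Rarres2. In the 250 bases before the start, the RFX core motif GTTGCC, on either strand, occurred in 11 of 25 members (44%) and in 11.8% of 27025 genes. Those 11 were Ccdc153, Dynlrb2, Enkur, Hydin, Mcidas, Mlf1, Pifo, Rfx2, Spag16, Tekt1 and Tekt2. The palindromic X-box, GTTNCC and GGNAAC parted by 2 bases, occurred in Pifo alone of the 25 (4%), against 0.444% of all genes, and overlapped its core motif. A forkhead motif, GTAAACA on either strand, occurred in Ak7 and Mlf1 (8%), against 3.54% of all genes. Other spellings of these motifs were counted before these 3 were kept, so the shares are a description. Capitals mark the core motif (GGCAAC on the other strand) and, in Pifo, the X-box; Tmem212 holds neither.
Dynlrb2 (chr8:116504765-116505014, plus strand): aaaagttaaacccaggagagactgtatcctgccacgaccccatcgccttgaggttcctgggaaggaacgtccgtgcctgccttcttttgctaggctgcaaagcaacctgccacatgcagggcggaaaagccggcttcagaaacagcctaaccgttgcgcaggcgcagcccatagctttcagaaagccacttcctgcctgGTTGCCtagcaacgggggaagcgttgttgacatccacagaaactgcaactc
Hydin (chr8:110266727-110266976, plus strand): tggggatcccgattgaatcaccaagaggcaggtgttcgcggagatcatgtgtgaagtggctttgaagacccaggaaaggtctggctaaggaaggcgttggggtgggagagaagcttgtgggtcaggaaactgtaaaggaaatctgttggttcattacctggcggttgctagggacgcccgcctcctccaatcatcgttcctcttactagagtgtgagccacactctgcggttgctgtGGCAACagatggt
Ccdc153 (chr9:44240427-44240676, plus strand): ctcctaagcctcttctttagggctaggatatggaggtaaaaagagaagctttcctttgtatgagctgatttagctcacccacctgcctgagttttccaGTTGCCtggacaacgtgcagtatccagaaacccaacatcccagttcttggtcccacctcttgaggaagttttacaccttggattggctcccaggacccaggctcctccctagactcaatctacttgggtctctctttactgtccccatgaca
Pifo (chr3:106001498-106001747, minus strand): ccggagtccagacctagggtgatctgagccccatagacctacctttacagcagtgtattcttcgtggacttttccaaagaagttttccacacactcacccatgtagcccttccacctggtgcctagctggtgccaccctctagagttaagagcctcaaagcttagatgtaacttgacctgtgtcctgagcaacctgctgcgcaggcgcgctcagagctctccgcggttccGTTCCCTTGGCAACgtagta
Tmem212 (chr3:27896369-27896618, minus strand): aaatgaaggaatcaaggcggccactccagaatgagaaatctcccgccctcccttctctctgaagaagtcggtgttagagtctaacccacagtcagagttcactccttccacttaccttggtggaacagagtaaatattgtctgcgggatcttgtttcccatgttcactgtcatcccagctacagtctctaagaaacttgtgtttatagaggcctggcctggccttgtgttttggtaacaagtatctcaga
Of the 11 members with the core motif, 10 were tested and 3 were called lower in AGR cKO over both rearing conditions (Dynlrb2, Hydin and Ccdc153). Of the 14 without it, all tested, 7 were called, Tmem212 among them. Over all genes tested, 1.94% were called lower. Whether the motif and the calls go together was not tested. Pifo holds the fullest match and was not called (-0.87 ± 0.33, adjusted p = 0.170). Its window was selected for holding the X-box and lies inside the span of the gene's deposited transcripts (chr3:105996957-106014646).

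Dynein arm genes supplied 5 of the 11 calls, and most of these depended on single libraries. In the 12 fits that left out a library, Dynlrb2 was called in 12, Dnah12 in 7, Dnah5 in 3, Dnali1 in 2 and Dnah11 in 1. Dynlrb2 (chr8:116505015-116515915), a roadblock-type dynein light chain, had 1.32, 1.45 and 1.39 CPM in AGR cKO ESD, 2.17, 1.93 and 1.81 CPM in AGR cKO control, 2.94, 1.80 and 2.94 CPM in Cre- ESD, and 4.43, 3.77 and 3.23 CPM in Cre- control libraries. Every AGR cKO library was below every Cre- library of its own rearing condition, and ESD libraries were below control libraries within each genotype; across rearing conditions Cre- ESD 2 lay just below the lowest AGR cKO control library. The genotype difference was -0.91 ± 0.15, or 47.0% lower (adjusted p = 0.0112). Its broadly expressed paralogue Dynlrb1, part of cytoplasmic dynein, stood at 0.05 ± 0.06.

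Dnali1 (chr4:125055339-125065657), an inner arm light chain, had 3.53, 4.99 and 3.03 CPM in AGR cKO ESD, 5.75, 4.74 and 2.95 CPM in AGR cKO control, 5.99, 5.94 and 6.36 CPM in Cre- ESD, and 10.7, 11.5 and 6.07 CPM in Cre- control libraries. All 6 AGR cKO libraries were below all 6 Cre- libraries, AGR cKO control 1 by a narrow margin, and the difference was -0.87 ± 0.20 (adjusted p = 0.0410). Dnah12 (chr14:26691554-26892719), an inner arm heavy chain, had 6.28, 9.45 and 5.71 CPM in AGR cKO ESD, 13.1, 9.45 and 5.62 CPM in AGR cKO control, 13.7, 14.4 and 19.4 CPM in Cre- ESD, and 19.1, 27.2 and 12.8 CPM in Cre- control libraries. Under ESD the genotypes did not overlap, whereas AGR cKO control 1 lay above Cre- control 3 (-1.10 ± 0.23, adjusted p = 0.0288).

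Among the outer arm heavy chains, Dnah11 (chr12:117877982-118199043) had 8.21, 9.11 and 6.90 CPM in AGR cKO ESD, 12.2, 10.04 and 7.27 CPM in AGR cKO control, 12.2, 11.7 and 14.6 CPM in Cre- ESD, and 21.9, 23.6 and 11.2 CPM in Cre- control libraries. The same pattern held, with no overlap under ESD and with AGR cKO control 1 above Cre- control 3 (-0.80 ± 0.18, adjusted p = 0.0384). Dnah5 (chr15:28154854-28472045) had 10.2, 12.7 and 9.33 CPM in AGR cKO ESD, 18.2, 13.5 and 10.1 CPM in AGR cKO control, 14.7, 16.8 and 17.5 CPM in Cre- ESD, and 24.6, 28.7 and 17.5 CPM in Cre- control libraries. It too separated the genotypes under ESD but not in control animals (-0.68 ± 0.16, adjusted p = 0.0374). Dnah9, the other outer arm heavy chain, ranged from 7.54 to 18.6 CPM in AGR cKO and from 14.4 to 38.7 CPM in Cre- libraries and missed the threshold (-0.84 ± 0.22, adjusted p = 0.0633). Dnali1 overlaps Gnl2 in the annotation and Dnah11 overlaps Cdca7l; the strand setting of the counting is not given in the sources used here.

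Ccdc39 and Ccdc40 form the ruler that sets the spacing of dynein arms and spokes along the doublets. Ccdc39 had 24.5, 28.2 and 23.9 CPM in AGR cKO ESD, 33.2, 26.5 and 25.01 CPM in AGR cKO control, 19.6, 23.8 and 25.3 CPM in Cre- ESD, and 26.9, 46.4 and 24.8 CPM in Cre- control libraries. Cre- control 2 stood alone at the top, all other libraries overlapped, and the genotype difference was -0.03 ± 0.15 (adjusted p = 0.950). Ccdc39 overlaps Ttc14, whose reads may be shared with it. Ccdc40 ranged from 4.67 to 12.7 CPM in AGR cKO and from 8.85 to 17.2 CPM in Cre- libraries (-0.51 ± 0.25, adjusted p = 0.284).

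**Figure D2:**
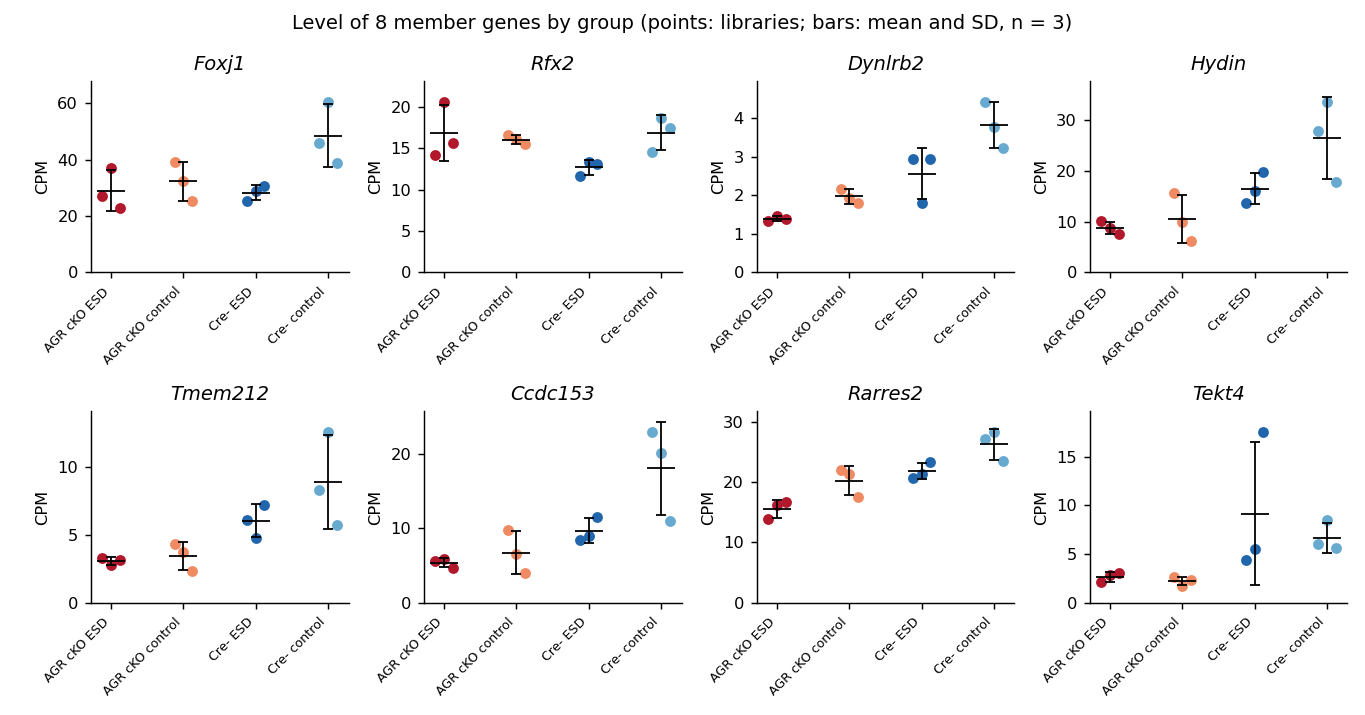
Level in CPM (y axes, from 0) of 8 members in the 12 libraries, by group; points are libraries, the wide bar is the mean and the error bar the SD (n = 3). Dynlrb2, Hydin, Tmem212 and Ccdc153 are lower in AGR cKO within each rearing condition, Foxj1 and Rfx2 have their lowest group means outside that pattern, in Cre- ESD, and Tekt4 has a single Cre- ESD library at 17.6 CPM.

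Of the 5 genes of the radial spokes and central apparatus, Hydin alone was called. Hydin (chr8:110266968-110610253), a giant protein of the central pair, had 10.1, 8.81 and 7.67 CPM in AGR cKO ESD, 15.7, 9.93 and 6.20 CPM in AGR cKO control, 13.8, 15.998 and 19.9 CPM in Cre- ESD, and 27.98, 33.7 and 17.8 CPM in Cre- control libraries. AGR cKO libraries were below Cre- libraries within each rearing condition, and the difference was -1.11 ± 0.22, 53.7% lower (adjusted p = 0.0217). Without AGR cKO control 2 the adjusted p was 0.0735.

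Genes of the spoke head also had lower fitted levels in AGR cKO but missed the threshold. Rsph1 had 4.82, 6.37 and 4.94 CPM in AGR cKO ESD, 7.06, 6.30 and 3.43 CPM in AGR cKO control, 6.12, 7.19 and 8.78 CPM in Cre- ESD, and 11.3, 14.3 and 7.29 CPM in Cre- control libraries. Its genotypes were apart in control animals and overlapped under ESD (-0.71 ± 0.20, adjusted p = 0.0803). Rsph4a had 7.65, 8.26 and 5.33 CPM in AGR cKO ESD, 13.1, 8.28 and 5.26 CPM in AGR cKO control, 9.44, 9.20 and 13.6 CPM in Cre- ESD, and 22.1, 24.99 and 12.2 CPM in Cre- control libraries. Here the genotypes were apart under ESD and overlapped in control animals (-0.88 ± 0.24, adjusted p = 0.0688). Spag16 and Spag17, both of the central apparatus, were at -0.63 ± 0.22 and -0.85 ± 0.29 (adjusted p = 0.140 and 0.124).

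Tektins are filament proteins that run along the inside of the doublets, and of their 3 genes in the set Tekt4 was called. Tekt4 (chr17:25454549-25476602) had 2.09, 2.83 and 3.05 CPM in AGR cKO ESD, 2.64, 1.74 and 2.29 CPM in AGR cKO control, 4.35, 5.55 and 17.6 CPM in Cre- ESD, and 6.02, 8.46 and 5.60 CPM in Cre- control libraries. All AGR cKO libraries were below all Cre- libraries, and Cre- ESD 3 stood far above the other 11. The difference was -1.69 ± 0.32 (adjusted p = 0.0188) and was still called without that library, at -1.24 (adjusted p = 0.00737). For Fkbp5, a glucocorticoid-induced chaperone gene named after its values were seen, Cre- ESD 3 had 103 CPM where Cre- ESD 1 and 2 had 11.1 and 9.93 CPM. Whether the Tekt4 and Fkbp5 values of that library are linked was not tested. Tekt1 ranged from 3.27 to 7.27 CPM in AGR cKO and from 4.88 to 8.97 CPM in Cre- libraries (-0.58 ± 0.18, adjusted p = 0.0976). Tekt2 ranged from 1.89 to 2.91 CPM in AGR cKO and from 1.68 to 4.19 CPM in Cre- libraries (0.03 ± 0.16, adjusted p = 0.942).

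Cfap126 (chr1:171113912-171126967), known as flattop, a protein of basal bodies and doublets, was called as well. It had 2.51, 3.18 and 2.62 CPM in AGR cKO ESD, 3.89, 3.89 and 2.08 CPM in AGR cKO control, 4.17, 4.60 and 5.49 CPM in Cre- ESD, and 6.89, 8.22 and 4.15 CPM in Cre- control libraries. All 6 AGR cKO libraries were below all 6 Cre- libraries, with a narrow gap (-0.87 ± 0.20, adjusted p = 0.0376), and in 11 of the 12 fits that left out a library it was not called. Ak7, an adenylate kinase of the axoneme, had 8.01, 6.94 and 6.87 CPM in AGR cKO ESD, 16.3, 10.2 and 6.04 CPM in AGR cKO control, 11.2, 10.2 and 17.3 CPM in Cre- ESD, and 27.5, 28.1 and 14.7 CPM in Cre- control libraries. It lay just outside the threshold (-0.97 ± 0.24, adjusted p = 0.0511), with AGR cKO control 1 above Cre- control 3. Enkur, which encodes the doublet protein enkurin, had 5.12, 8.71 and 4.07 CPM in AGR cKO ESD, 8.90, 7.45 and 4.82 CPM in AGR cKO control, 8.10, 7.88 and 7.45 CPM in Cre- ESD, and 11.4, 12.6 and 7.34 CPM in Cre- control libraries. Its genotypes overlapped in either rearing condition (-0.48 ± 0.21, adjusted p = 0.230). Mlf1 (-0.46 ± 0.21, adjusted p = 0.242) and Pifo, a basal body gene with 21 to 168 counts per library, were not called either.

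Other ependymal genes gave 3 calls, Tmem212, Ccdc153 and Rarres2. Tmem212 (chr3:27866065-27896391), a membrane protein gene used as an ependymal marker, had 3.29, 2.79 and 3.16 CPM in AGR cKO ESD, 4.32, 3.71 and 2.33 CPM in AGR cKO control, 6.10, 4.80 and 7.23 CPM in Cre- ESD, and 8.35, 12.6 and 5.77 CPM in Cre- control libraries. All AGR cKO libraries were below all Cre- libraries (-1.17 ± 0.21, 55.5% lower, adjusted p = 0.0146). Ccdc153 (chr9:44240677-44247306), another ependymal marker, had 5.60, 5.85 and 4.67 CPM in AGR cKO ESD, 9.68, 6.47 and 3.98 CPM in AGR cKO control, 8.44, 8.89 and 11.5 CPM in Cre- ESD, and 22.9, 20.1 and 11.02 CPM in Cre- control libraries. Within each rearing condition the genotypes did not overlap, and Cre- control 1 and 2 stood well above the rest (-1.13 ± 0.22, 54.3% lower, adjusted p = 0.0226).

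Rarres2 (chr6:48569696-48572845) had 13.9, 16.2 and 16.7 CPM in AGR cKO ESD, 22.0, 21.3 and 17.5 CPM in AGR cKO control, 20.7, 21.4 and 23.4 CPM in Cre- ESD, and 27.1, 28.4 and 23.4 CPM in Cre- control libraries. Its libraries ordered cleanly, AGR cKO below Cre- within each rearing condition and ESD below control within each genotype, the Cre- ESD and Cre- control ranges almost touching. Its genotype difference was the smallest among the 11 calls, -0.43 ± 0.08 or 25.8% lower (adjusted p = 0.0204). Mia, a small secreted protein, ranged from 1.303 to 2.83 CPM in AGR cKO and from 1.85 to 4.38 CPM in Cre- libraries (-0.57 ± 0.23, adjusted p = 0.188). Rarres2 overlaps Lrrc61 in the annotation.

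Genes listed for the choroid plexus gave a mixed picture, and edgeR called none of the 4 members with all 12 libraries. Ttr had 0, 1.89 and 0 CPM in AGR cKO ESD, 7.10, 0 and 0.389 CPM in AGR cKO control, 0, 0.375 and 0 CPM in Cre- ESD, and 0.0872, 0.726 and 0 CPM in Cre- control libraries. The values lie at 0 or near it in most libraries of each group and are scattered among the rest, with AGR cKO control 1 the highest, so no fold change is given. Folr1, a folate receptor of choroid plexus epithelium, had 0.803, 0.438 and 0.319 CPM in AGR cKO ESD, 1.56, 0.500 and 0.274 CPM in AGR cKO control, 0.851, 1.09 and 1.55 CPM in Cre- ESD, and 1.72, 2.06 and 1.17 CPM in Cre- control libraries. Calml4, a calmodulin-like protein, had 0.943, 0.696 and 0.888 CPM in AGR cKO ESD, 1.17, 1.24 and 0.983 CPM in AGR cKO control, 1.13, 1.48 and 1.61 CPM in Cre- ESD, and 2.12, 3.16 and 1.17 CPM in Cre- control libraries. Both were near 1 CPM, both separated the genotypes under ESD only, and neither was called (-1.11 ± 0.39 and -0.83 ± 0.23, adjusted p = 0.141 and 0.0701). Of the 12 fits that left out a library, 1 called Folr1 (without AGR cKO control 1) and 1 called Calml4 (without Cre- control 3). Clic6, an intracellular chloride channel protein, ranged from 0.524 to 2.49 CPM in AGR cKO and from 1.15 to 3.84 CPM in Cre- libraries (-0.49 ± 0.41, adjusted p = 0.570). Of 29 further choroid plexus genes, 11 had a median under 1 CPM, 8 were at 0 in at least 1 library and 6 had a median over 10 CPM. The last were Slco1c1, Atp11a, Enpp2, Slc13a4, Cab39l and Msx1. Highest values over the 12 libraries were 0.187 CPM for the channel subunit Kcne2, 0.196 for Tmem72, 0.316 for the transporter Slc4a5 and 0.796 CPM for the tight junction protein Cldn2, but 3.01 CPM for Kl, 3.89 for the water channel Aqp1, 4.05 for the transcription factor Otx2 and 18.6 CPM for F5. The 24 of the 29 that were tested had a median log2 fold change of -0.16, with 2 called lower (Enpp2 at -0.55 ± 0.08 and Ace at -1.05 ± 0.22, genes that other brain cells also express) and 0 higher. The 28 members outside this group are called ependymal and motile cilium genes.

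**Figure D3:**
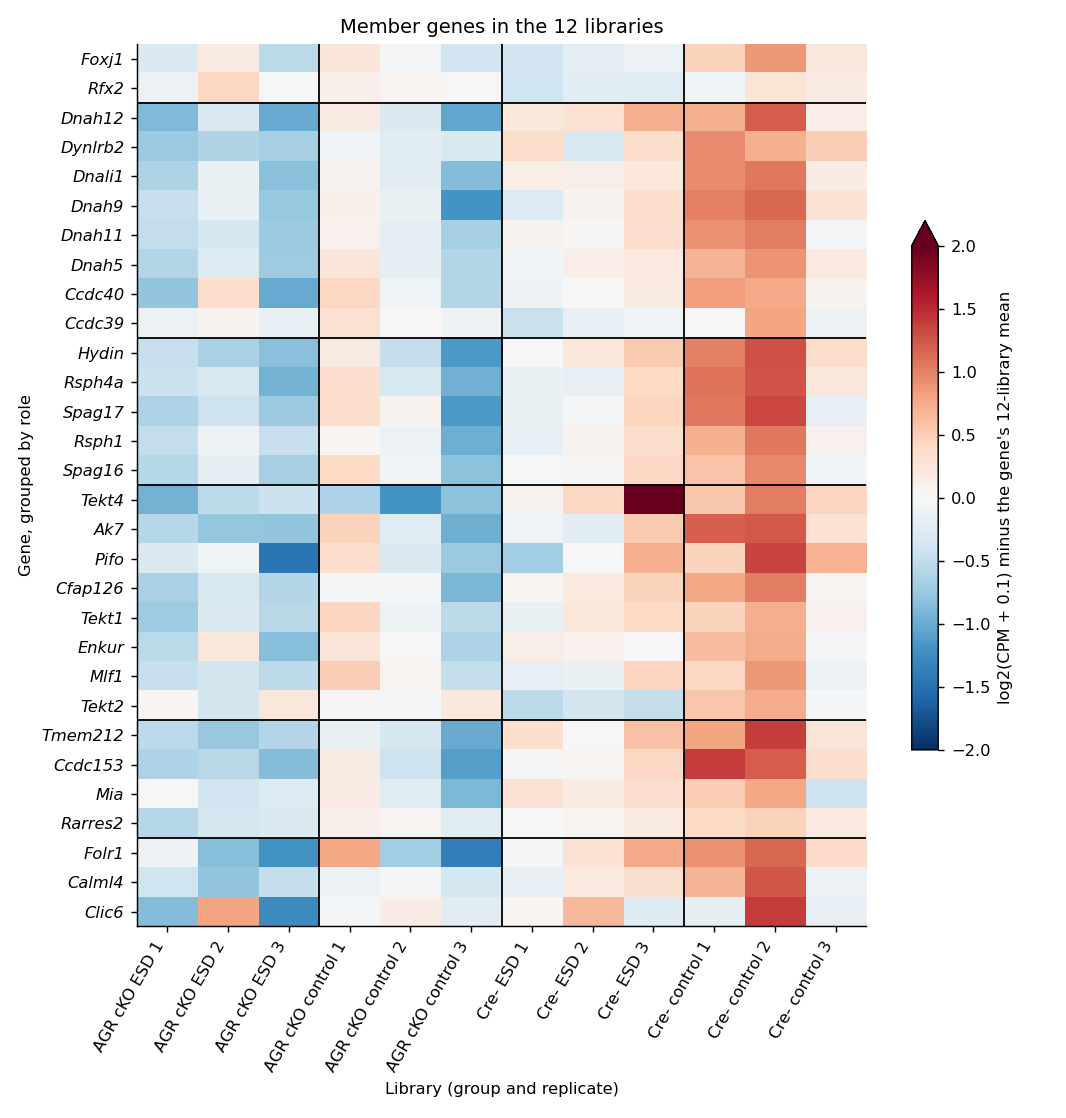
Heat map of 30 members (rows, grouped by role and sorted by genotype difference) in the 12 libraries (columns, 3 per group); colour gives log2(CPM + 0.1) minus the gene's mean over the 12 libraries. Cre- control 2 is the reddest column and AGR cKO control 3 and AGR cKO ESD 3 the bluest; Ttr and Mcidas are left out.

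Members tended to be high or low together from library to library, also within a group. Cre- control 2 was the highest of the 12 libraries for 25 of the 31 members and above the mean for all 31, with a median deviation of 1.03 on the log2 scale. Next came Cre- control 1 at 0.69, Cre- ESD 3 at 0.35, AGR cKO control 1 at 0.17 and Cre- control 3 at 0.14. The lowest were AGR cKO control 3 at -0.75 and AGR cKO ESD 3 at -0.70, followed by AGR cKO ESD 1 at -0.53, AGR cKO ESD 2 at -0.32 and AGR cKO control 2 at -0.15, while Cre- ESD 1 and 2 lay near 0. Within AGR cKO control, library 1 was the highest for 28 members and library 3 the lowest for 28. Within Cre- control, library 2 was the highest for 28 and library 3 the lowest for 28. The 28 ependymal and motile cilium members summed to 181 to 242 CPM in AGR cKO ESD, 178 to 308 CPM in AGR cKO control, 245 to 328 CPM in Cre- ESD and 298 to 517 CPM in Cre- control libraries. AGR cKO and Cre- libraries thus overlapped in this sum across rearing conditions, and within a rearing condition they overlapped only in control animals.

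Under ESD alone, AGR cKO against Cre-, edgeR called 0 of the 31 members, with 0.459% of all genes called lower and 0.584% higher. At an unadjusted p under 0.05, 14 members were lower and Rfx2 higher, against 7.68% and 7.92% of all genes, and DESeq2 called 5 lower (2.18% of all genes): Dnah12, Dynlrb2, Rarres2, Tekt4 and Tmem212. The genotypes did not overlap, with AGR cKO lower, for 20 members (64.5%, against 9.64% of all genes), and with AGR cKO higher for Rfx2 (10.3% of all genes). The median log2 fold change was -0.63, with 26 of 31 members below 0 (49.7% of all genes).

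In control animals alone, AGR cKO against Cre-, edgeR again called 0 members, with 0.00522% of all genes called lower and 0.0104% higher. At an unadjusted p under 0.05, 19 members were lower and 0 higher (5.94% and 4.28% of all genes), and DESeq2 called 9 lower (1.09%): Ccdc153, Dnah11, Dnah9, Dnali1, Dynlrb2, Hydin, Rsph4a, Tekt4 and Tmem212. Groups did not overlap for 11 members, all lower in AGR cKO (35.5%, against 8.39% of all genes), and the median log2 fold change was -0.94, with 30 of 31 members below 0 (52.7% of all genes). Foxj1 differed in its value between the comparisons, at 0.04 ± 0.21 under ESD (adjusted p = 0.957) and -0.58 ± 0.21 in control animals (adjusted p = 0.374). The test of that difference, the interaction of genotype and rearing, gave 0.62 ± 0.29 (adjusted p = 0.999).

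For early life stress, no member was called in either genotype. In Cre- animals 30 of the 31 members had a lower fitted level in ESD than in control libraries (54.1% of all genes), with a median log2 fold change of -0.56 against -0.02 over all genes. EdgeR called 0 members and 0 genes in all (0%), DESeq2 0 members (0.0531% of all genes in each direction), and at an unadjusted p under 0.05 there were 13 members lower and 0 higher, against 4.49% and 2.7% of all genes. Tekt2 (-0.95 ± 0.23, unadjusted p = 0.00151, adjusted p = 0.627) and Foxj1 (-0.78 ± 0.21, unadjusted p = 0.00313, adjusted p = 0.627) had the smallest p. Foxj1, whose levels are given above, lay between 25.4 and 30.6 CPM in Cre- ESD and between 38.8 and 60.7 CPM in Cre- control libraries. Groups did not overlap for 6 members, lower in ESD (19.4%, against 6.39% of all genes): Foxj1, Rfx2, Tekt2, Dynlrb2, Dnah5 and Rarres2. The median rested in part on Cre- control 2 and was -0.33 without it. Tekt4 was the only member with a higher fitted level in ESD (0.45 ± 0.43), with Cre- ESD 3 at its top. All 12 endothelial markers also had a lower fitted level under ESD in Cre- animals (median -0.28, 0 called). Of 15 astrocyte markers, 12 had a higher one (median 0.12, 0 called). The part of endothelial cells in the members' values was not tested.

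In AGR cKO animals ESD against control gave a median of -0.32, with 28 of 31 members below 0 (49% of all genes). EdgeR called 0 members and 0 genes (0%) and DESeq2 0 members (0.0674% of all genes lower, 0.00421% higher). At an unadjusted p under 0.05, Dynlrb2 and Rarres2 were lower and 0 members higher (4.33% and 3.25% of all genes). Groups did not overlap for 3 members, Calml4, Dynlrb2 and Rarres2, all lower in ESD (9.68%, against 8.65% of all genes). The median was -0.04 without AGR cKO control 1, -0.19 without AGR cKO ESD 3 and -0.52 without AGR cKO control 3. Markers of some other cells also had lower fitted levels under ESD in AGR cKO animals, with 0 called by edgeR in each list. Mural cells and fibroblasts had a median of -0.82 (12 of 12 below 0, 8 at an unadjusted p under 0.05) and neurons of -0.65 (15 of 15, 7). Endothelium had a median of -0.34 (12 of 12, 1) and meninges of -0.29 (9 of 12, 4). Astrocyte markers had a median of 0.13, with 14 of 15 above 0. Mural and fibroblast markers summed to 1991 to 4520 CPM in AGR cKO ESD and 5506 to 6277 CPM in AGR cKO control libraries, and neuronal markers to 69.2 to 78.6 CPM in AGR cKO ESD and 92.8 to 116 CPM in AGR cKO control libraries. The part of these other cells in the members' values was not tested. Over both genotypes edgeR called 0 members and 0 genes (0%) and DESeq2 0 members (0.118% of all genes lower, 0.071% higher). At an unadjusted p under 0.05, 14 members were lower and 0 higher (6.16% and 4.21% of all genes), and 30 of 31 lay below 0 (52%). No member was without overlap over all 12 libraries (0.224% of all genes). The median was -0.45, and -0.29 without AGR cKO control 1. Rarres2 (-0.32 ± 0.08, adjusted p = 0.438) and Dynlrb2 (-0.54 ± 0.15, adjusted p = 0.438) led, and both had ESD below control libraries without overlap in each genotype.

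The interaction, whether the ESD difference varied with genotype, called 0 members and 0 genes (0%) in edgeR and 0 members in DESeq2 (0.0236% of all genes lower, 0.0118% higher). At an unadjusted p under 0.05, Tekt2 (0.86 ± 0.32) and Rfx2 (0.48 ± 0.20) were higher and 0 lower, against 2.56% and 1.93% of all genes, and 7 of 31 lay below 0 (46.9%). Adjusted p-values of all members were at least 0.999. The comparisons of genotype in control animals, of ESD in Cre- animals and of the interaction share the Cre- control libraries, in which Cre- control 2 was highest for most members.

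Other genes of the motile axoneme, from a list outside the set, were mostly at lower fitted levels too. Of 80 tested, 72 had a lower fitted level in AGR cKO than in Cre- over both rearing conditions (median -0.58), 12 were called lower and 1 higher, against 1.94% and 1.55% of all genes. Spag6l of the central apparatus (-1.02 ± 0.20, adjusted p = 0.0212), Stoml3, a stomatin-like membrane protein (-1.37 ± 0.27, adjusted p = 0.0215), and Armc4, a docking protein of outer dynein arms (-1.26 ± 0.26, adjusted p = 0.0257), had the smallest p. Armc4, Stoml3 and Spag6l were joined by Dnah3, Dnah6, Dnah10, Ccdc180, Cfap65, Cfap70, Cfap73, Lrrc23 and Ttll6. The call in the other direction was Tekt5 (0.80 ± 0.17, adjusted p = 0.0284), a tektin known from sperm flagella. In Cre- animals 73 of the 80 had a lower fitted level under ESD (median -0.43), with 0 called.

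Genes that motile and primary cilia share had a median near 0. Intraflagellar transport and BBSome genes, which build either kind of cilium, had a median of 0.02 over 33 genes, 18 of them above 0, with 0 called lower and 1 higher, Kif3a, a subunit of the kinesin that carries cargo up the axoneme (0.28 ± 0.06, adjusted p = 0.0283). Their sum was 1104 to 1135 CPM in AGR cKO ESD, 1080 to 1184 CPM in AGR cKO control, 1025 to 1130 CPM in Cre- ESD and 1021 to 1218 CPM in Cre- control libraries, and the groups overlapped. Regulators of multiciliogenesis had a median of -0.10 over 15 tested genes and a lower quartile of -0.76, with 2 called lower (1.94% of all genes) and 7 lower at an unadjusted p under 0.05 (11.3% of all genes). The called genes were Trp73, which encodes a p53 relative that acts upstream of Foxj1 (-0.75 ± 0.15, adjusted p = 0.0256), and Ankrd66 (-0.78 ± 0.17, adjusted p = 0.0315). Of 11 tested paralogues of members, which include Dynlrb1, Dync1h1, Ak1 and Clic4, 0 were called and the median was 0.05. In Cre- animals under ESD the medians were -0.06 for intraflagellar transport, -0.18 for multiciliogenesis and 0.01 for paralogues.

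**Figure D4:**
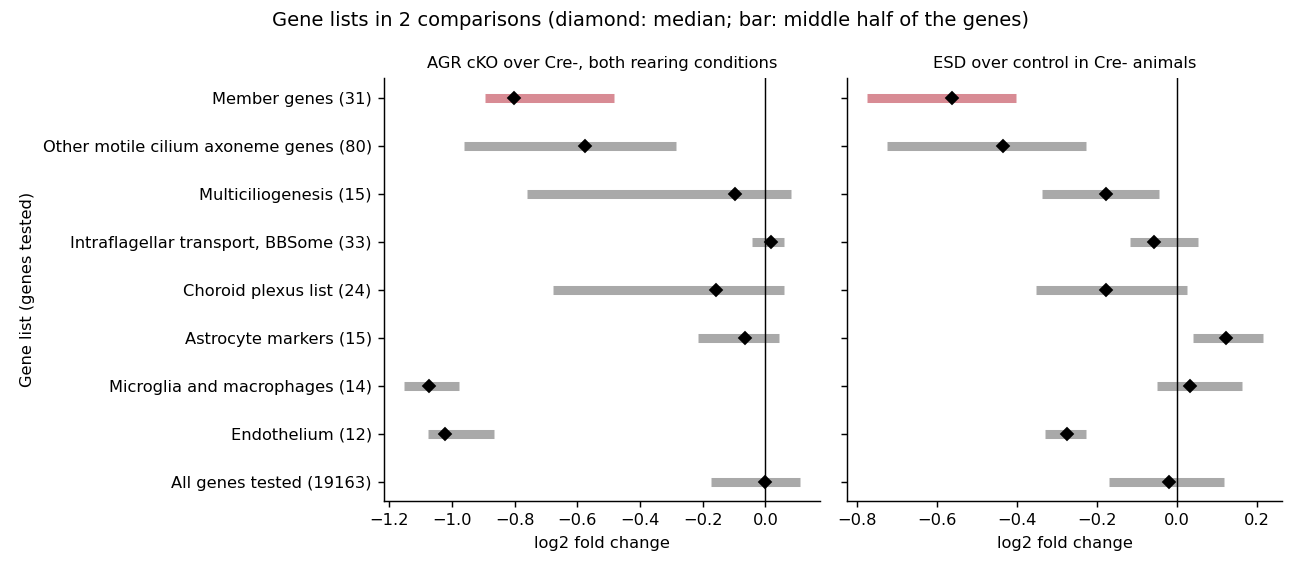
Log2 fold changes of 9 gene lists (rows; genes tested in brackets) for AGR cKO over Cre- in both rearing conditions (left) and ESD over control in Cre- animals (right); diamonds are medians and bars run between the quartiles. Member genes, other axoneme genes and endothelial markers lie left of 0 in both panels. Intraflagellar transport genes lie near 0, and microglial markers lie left of 0 in the left panel.

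Markers of microglia and endothelium also had lower fitted levels in AGR cKO libraries. All 14 microglia and macrophage markers had a lower fitted level in AGR cKO over both rearing conditions (median -1.07; 0 called, 14 at an unadjusted p under 0.05), and so did all 12 endothelial markers (median -1.02; 0 called, 10 at an unadjusted p under 0.05). Microglial markers summed to 167 to 435 CPM in AGR cKO ESD, 199 to 453 CPM in AGR cKO control, 489 to 818 CPM in Cre- ESD and 352 to 1013 CPM in Cre- control libraries. Endothelial markers summed to 266 to 509 CPM in AGR cKO ESD, 376 to 797 CPM in AGR cKO control, 464 to 1177 CPM in Cre- ESD and 380 to 2007 CPM in Cre- control libraries. Cre- control 1 was the highest library for both sums and next to the highest for the 28 members, at 431 CPM. Cre- control 2, the highest for those members at 517 CPM, was the lowest Cre- library for both sums. The part of these cells in the members' result was not tested. Astrocyte markers had a median of -0.07 over 15 genes, with Gjb6 (-1.14 ± 0.22, adjusted p = 0.0218) and Aldoc (-0.51 ± 0.13, adjusted p = 0.0495) called lower and Aqp4 (0.50 ± 0.11, adjusted p = 0.0315) called higher. Of 13 markers of the subventricular zone, the germinal layer under the ependyma, Cd24a was called lower (-0.76 ± 0.16, adjusted p = 0.0268), a surface protein that ependymal cells carry too, and Egfr higher (0.26 ± 0.06, adjusted p = 0.0297), with a median of -0.30.

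**Figure D5:**
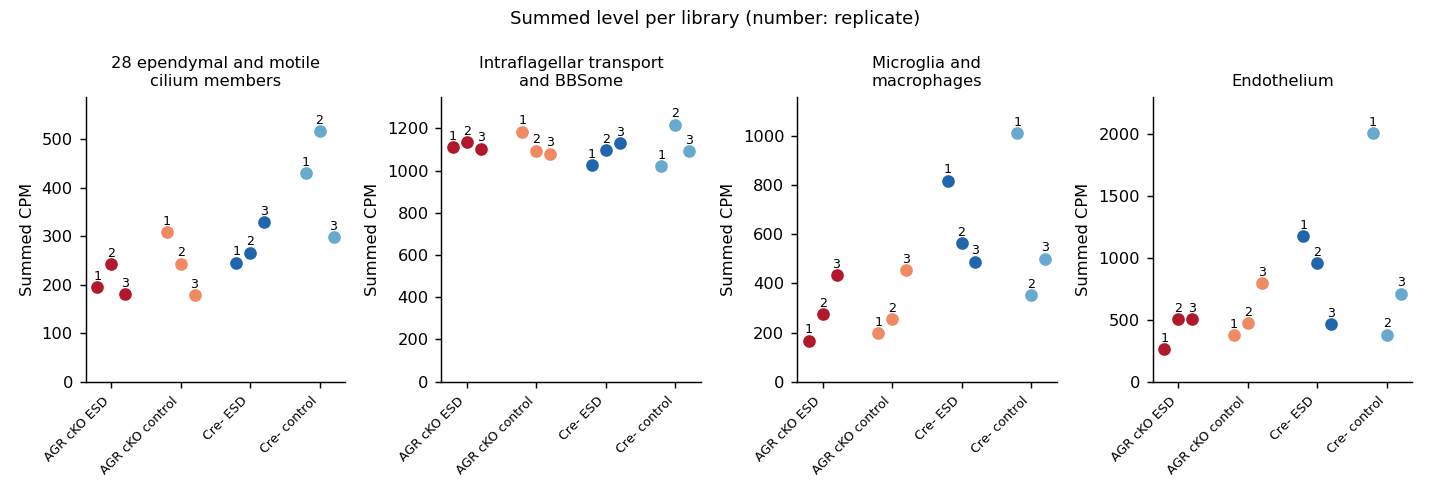
Summed CPM per library (y axes, from 0) of the 28 ependymal and motile cilium members, of intraflagellar transport and BBSome genes, of microglia and macrophage markers and of endothelial markers; points are libraries with their replicate number. Cre- control 2 is highest in the first panel, followed by Cre- control 1, which is highest in the last 2.

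Across the 12 libraries the genes outside the set most like Foxj1, by Pearson's r of log2 CPM among 14994 genes averaging at least 1 CPM, were Eno4 (0.946), Ttll9 (0.941), Dnaaf3 (0.938), Zmynd10 (0.938), Togaram2 (0.924), 1700003E16Rik (0.923), Ccdc24 (0.919) and Fam216b (0.919). Ttll9, Dnaaf3 and Zmynd10 are in the axoneme list, and Zmynd10 and Dnaaf3 encode factors that assemble dynein arms. Among members, Rsph4a (0.875), Ccdc40 (0.871), Dnah9 (0.865) and Dnah5 (0.858) came closest to Foxj1, and Tekt4 (0.354) was the least like it. These points share their libraries, groups and depth, and the values are a description.

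Transcript levels are the authors' estimates and were not tested. In 26 of the 31 a single transcript held over 50% of the gene's TPM, and in 28 of the 31 the most abundant transcript averaged less in AGR cKO than in Cre- libraries, the exceptions being Hydin, Rfx2 and Ttr. For Tmem212 a transcript of 717 bases held 86.6% of the TPM and averaged 11.9 ± 2.91 TPM in AGR cKO and 26.8 ± 10.3 TPM in Cre- libraries (SD, n = 6 each). For Hydin the transcript of 15783 bases held 42.1% and averaged 1.501 ± 0.92 TPM in AGR cKO and 0.92 ± 1.02 TPM in Cre- libraries (SD, n = 6 each). Another Hydin transcript of 15594 bases was listed at 0 in all AGR cKO libraries and averaged 1.08 ± 1.19 TPM in Cre- libraries.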

How the data were processed

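The authors deposited whole-number read counts, FPKM and TPM per gene and per transcript for 12 libraries, per the file headers. Tools listed without roles in the submitters' processing notes are StringTie 1.3.4b, HISAT2 2.1.0, HISAT, Bowtie2, DESeq2 and Trimmomatic, with the mm10 build; annotation and strand setting are not given in the sources used here. The deposited TPM values served to compare genes and in alternatives; FPKM values, deposited by the authors, were not used. Columns marked cre_M and cre_P were read as Cre- and AGR cKO. Counts of 19163 genes that passed filterByExpr were fitted with edgeR 4.0.16 (R 4.3.3; TMM scaling, quasi-likelihood F test) in a single model of the 4 groups with 8 residual degrees of freedom and no covariate. P-values were adjusted by Benjamini-Hochberg over all genes, with calls under 0.05. SE is the log2 fold change divided by the square root of F. The fit was tested on simulated counts, drawn independently for each gene. Those counts lack the joint rise and fall of members from library to library, so the simulation does not bear on it. DESeq2 1.42.0, limma 3.58.1 on log2(TPM + 1) and log2(TPM + 0.1), other scaling and filters, and leaving out each library were alternatives. Members and lists were chosen with earlier results of these data known. Values in every library are given for called members and for genes fixed in the design. Gene coordinates and overlaps are from the deposited transcript loci, each gene spanning its outermost transcript ends. Promoters are from RefSeq GRCm38.p6. Floors and limits from counts cover counting error only.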

Additional observations from a re-analysis of the deposited data

How the results depend on the processing

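Among 20 alternatives, DESeq2 called 1711 genes for AGR cKO against Cre- over both rearing conditions, 783 under ESD, 265 in control animals, 24 for ESD in Cre-, 17 for ESD in AGR cKO, 32 for ESD over both genotypes and 9 for the interaction, and 18, 5 and 9 members in the first 3. limma on TPM + 1 called 7 members over both rearing conditions. Fitting only the 2 groups compared called 31 genes in control animals and 0 under ESD, and no filter called 100 under ESD. Leaving out each library in turn called 151 to 932 genes and 2 to 14 members over both rearing conditions, 2 to 280 genes and 0 to 1 members under ESD, 0 to 63 genes and 0 to 1 members in control animals, 0 to 1 genes for ESD in Cre- and 0 to 1 for ESD over both genotypes. The same fits ranged for Foxj1 from -0.3744 to 0.0037 (ESD in AGR cKO) and from -0.18 to 0.19 (AGR cKO under ESD), for Ccdc39 over both rearing conditions from -0.11 to 0.15 and for Tekt2 from -0.0651 to 0.122; the cause was not tested. Deviations of 18 pairs of same-numbered libraries correlated at -0.1039 to 0.2274, 7 over 0.1. Of the 12 libraries, 8 correlated best with a library of their own number in another group. Whether same-numbered libraries were handled together was not tested, and the main model has no term for it. With the replicate block 799 genes and 13 members were called over both rearing conditions, 244 genes under ESD, 2 in control animals and 0 in the rest. With 3 libraries per group, members near 1 CPM had few counts, 12 to 88 per library for Folr1 and 35 to 135 for Calml4. Whether this limited their calls was not tested.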

Other observations

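Other cell types were covered by lists of their markers in the comparison of AGR cKO with Cre- libraries over both rearing conditions. Grin1, a glutamate receptor subunit of neurons, was called higher (0.96 ± 0.11 on the log2 scale, adjusted p = 0.00402 by edgeR), while the 15 neuronal markers had a median of -0.01. Within rearing conditions that median was -0.41 under ESD and 0.49 in control animals. Under ESD 13 of 15 lay below 0, with 4 lower and 1 higher at an unadjusted p under 0.05 (7.68% and 7.92% of all genes). The higher one was Grin1, also called by edgeR (0.88 ± 0.16, adjusted p = 0.0326). In control animals 12 of 15 lay above 0, with 5 higher and 0 lower at an unadjusted p under 0.05 (4.28% and 5.94% of all genes). The interaction had a median of -0.86, with 0 neuronal genes called by edgeR (5 lower without adjustment, 1.93% of all genes). Markers of meninges had a median of -0.28 over 12 genes, of mural cells and fibroblasts -0.11 over 12 genes (-0.47 under ESD and 0.14 in control animals), and of oligodendrocytes and their precursors 0.07 over 11 genes, with 0 called by edgeR in each of these 3 lists. Without adjustment, a p under 0.05 was reached by 0 meningeal genes, 3 mural or fibroblast genes, all lower in AGR cKO, and among oligodendrocyte genes by 1 lower and 1 higher, against 11.3% lower and 8.7% higher of all genes.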
